A study of Mus musculus with 4 samples.

Results

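Microtubules are hollow polymers of alpha- and beta-tubulin, and cells tune them through the tubulin genes they express and through proteins that bind tubulin or the polymer. Beta-tubulin isotypes differ most in their acidic carboxyl-terminal tails, stathmins sequester tubulin dimers and favour disassembly, and microtubule-associated proteins stabilise or organise the polymer. Oligodendrocytes depend on microtubules to extend branched processes and to carry myelin messenger RNAs and membrane to the growing sheath. The 10 genes described here are 1 alpha-tubulin (Tuba1a), 4 beta-tubulins (Tubb2b, Tubb3, Tubb4a and Tubb5), the microtubule-organising protein gene Tppp, 3 stathmins (Stmn1, Stmn2 and Stmn3) and the microtubule-associated protein gene Map1b. They were taken by symbol from a table of 35869 gene rows, and all 10 were found once and passed the filter on low values that kept 10754 rows.

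The series profiled oligodendrocytes sorted for the surface lipids O4 and GalC out of mouse cortex at postnatal day 5. It compared 2 wild-type libraries (WT) with 2 libraries from mice carrying a Zfp488 knock-in allele on both chromosomes, which the sample labels call Zfp488 KO. Zfp488 encodes a zinc finger protein of the oligodendrocyte lineage, and the study concerns the timing of myelination. The design of the allele, the number of animals behind each library and any pooling are not stated in the labels, so the p-values reflect the spread among 4 libraries, and that spread may be technical.

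Values are FPKM, fragment numbers divided by transcript length and by library size. Total reads are not given. A weak peak among low values, sought in a preset range, put 1 FPKM on a 1 kb transcript at roughly 37.4 to 44.5 reads per library. Zfp488 was read at 6.61 and 5.29 FPKM in the WT libraries, against 4.82 and 4.11 FPKM in the KO libraries, a log2 difference of -0.34 (SE 0.33) that did not pass (limma, adjusted p = 0.95), so it checks the labels weakly. All 8 oligodendrocyte lineage markers were expressed, with summed levels of 2462 to 2806 FPKM. Libraries that carry the same number also stood apart from the others. The 10 cell cycle markers summed to 112 and 191 FPKM in WT 1 and KO 1 and to 641 and 802 FPKM in WT 2 and KO 2, and 8 microglial markers to 50.95 and 50.6 against 118 and 135 FPKM. Vascular markers (10 genes) summed to at most 2.56 FPKM in the libraries numbered 1 and to at least 43.1 FPKM in those numbered 2. Astrocyte markers (8 genes) summed to 90.5 and 113 FPKM in WT 1 and KO 1, below 133 and 232 FPKM in WT 2 and KO 2. Haemoglobin and other erythroid genes (5 genes) summed to 567 and 485 FPKM against 965 and 899 FPKM in the same order. Nothing in the labels says what the numbers stand for.

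The coding ends of the beta-tubulins are shown because they set most of the isotypes apart. They also bear on how far the FPKM of each isotype can be trusted. Each line gives the last 21 codons, stop codon included, from the longest coding transcript of the GENCODE M21 annotation of GRCm38, 5′ to 3′. Capitals mark the glutamate codons GAA and GAG, which make up the acidic tail that glutamylating enzymes modify.
Tubb2b: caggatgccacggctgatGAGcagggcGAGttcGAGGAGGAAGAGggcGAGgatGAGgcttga
Tubb2a: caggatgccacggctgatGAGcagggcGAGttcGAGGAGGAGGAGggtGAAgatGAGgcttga
Tubb3: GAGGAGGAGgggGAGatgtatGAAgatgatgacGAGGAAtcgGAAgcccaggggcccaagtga
Tubb4a: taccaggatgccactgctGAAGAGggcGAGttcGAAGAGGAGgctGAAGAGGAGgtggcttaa
Tubb5: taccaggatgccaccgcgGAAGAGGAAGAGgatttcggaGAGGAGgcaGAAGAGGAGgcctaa

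The tails of Tubb4a and Tubb5 hold 9 glutamate codons each, and those of Tubb2b, Tubb2a and Tubb3 hold 8. The ends of Tubb2b and Tubb2a differ only between codons for the same amino acid, so both encode the same tail. Over the first 1200 coding bases Tubb2b and Tubb2a were 96.3% identical, while Tubb4a was 84.5% identical to Tubb2b, 83.8% to Tubb5 and 83.7% to Tubb3. Of all 50-base words in the Tubb2b transcript 39.3% also occurred in a transcript of another gene, mostly Tubb2a. For Tuba1a that share was 75.5%, with Tuba1c as the leading partner, and for Stmn1 it was 36.5%, with the gene Gm11223. Among relatives named below it was 83.1% for Tuba1b, 61.0% for Tuba1c, 49.6% for Tubb2a and 55.5% for Tubb4b. Reads from all these genes can therefore be split or shared with near-identical copies. Their FPKM are uncertain to that extent, and so are the family shares built on them. The share was 0.184% for Tubb4a, 0.115% for Tubb5 and 0 for Tubb3, Tppp, Stmn2, Stmn3 and Map1b, so at this word length their reads are nearly all their own. The read length behind the table is not known here.

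No member passed the genotype test. Of the 10 genes 0 had an adjusted p under 0.05 (limma with Benjamini-Hochberg adjustment over all rows tested), against a background of 0% of the 10754 rows, and 1 had an unadjusted p under 0.05 (Stmn2), against a background of 5.65%. The smallest adjusted p among the members was 0.859. The 2 KO libraries were lower than either WT library for 3 members (Tubb4a, Map1b and Tubb2b), where the background was 18.3% of rows. Among the 741 tested rows with a mean of at least 100 FPKM, the level of Tubb4a and Tubb2b, that share was 42.8%. Both KO libraries lay above for 1 member (Stmn2), where the background was 16.6%, and the groups overlapped for 6. The median log2 difference of the 10 genes was -0.057, beside a median of 8.11e-05 over all rows tested. Under the 3 other scalings it was positive, at 0.040 after rescaling to TPM, 0.046 after quantile and 0.068 after cyclic loess normalization. The medians over all rows were then 0.095, -0.011 and -0.0064, so after rescaling to TPM the members still lay below all rows. These shares rest on so few genes that they say little about the set.

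**Figure D1:**
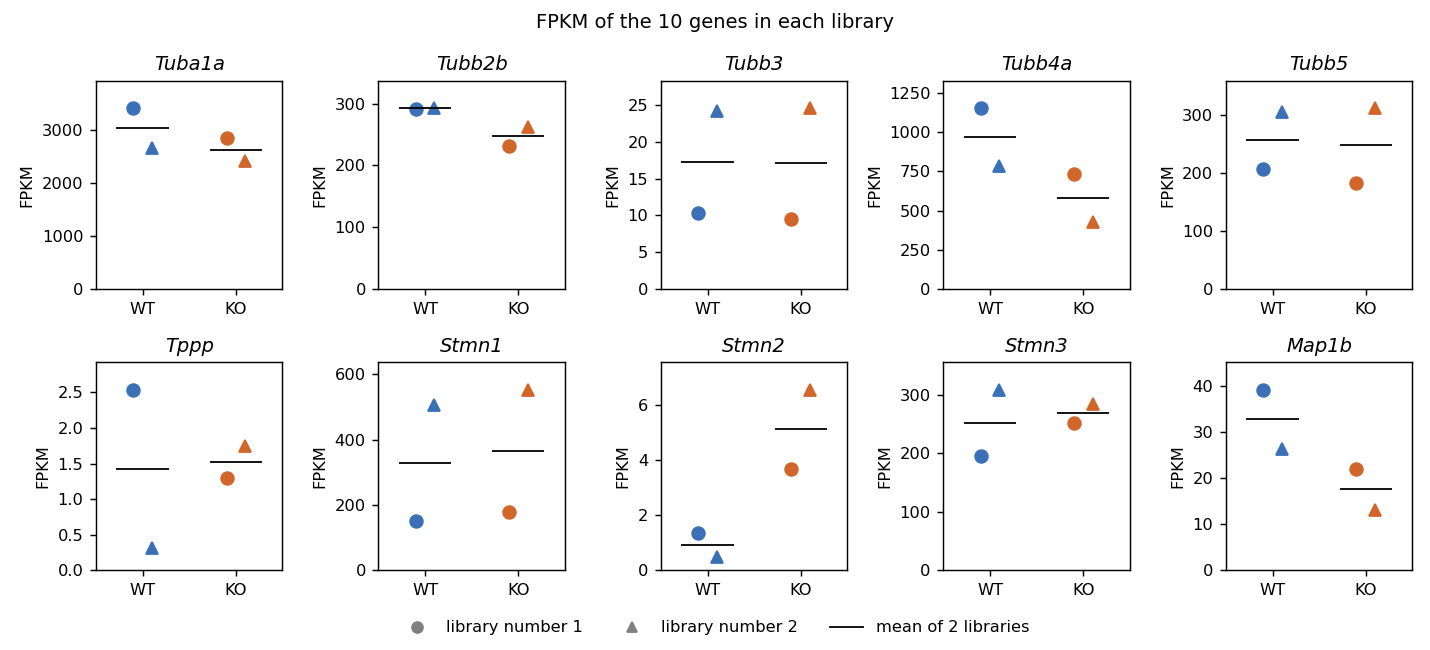
FPKM of each of the 10 genes (vertical axes, linear, each with its own scale from 0) in WT and KO; circles are libraries numbered 1, triangles libraries numbered 2, and lines are means of 2 libraries. Tubb4a, Map1b and Tubb2b separate with KO below WT, Stmn2 with KO above WT, and Stmn1, Tubb3 and Tubb5 separate by library number instead.

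Tuba1a, the alpha-tubulin that dominates in the developing brain, was the most abundant row of the whole table in each of the 4 libraries. Its level was 3420 FPKM (WT 1), 2668 FPKM (WT 2), 2855 FPKM (KO 1) and 2418 FPKM (KO 2). KO 1 lay between the WT libraries, so the groups overlapped. The log2 difference of KO minus WT was -0.20 (SE 0.15; limma, adjusted p = 0.933), and after cyclic loess normalization, which removes trends with level, it was 0.050. After quantile normalization, which gives the top row of every library the same value, it was 0. Among the 741 tested rows with a mean of at least 100 FPKM the median log2 difference was -0.16, so a small negative value was common at this level. The gene lies on chromosome 15 at 98949837 to 98953703 (GRCm38, minus strand, 4 exons).

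The other expressed alpha-tubulins were an order of magnitude lower. Tuba1c was at 364 and 362 FPKM in the WT libraries, against 317 and 314 FPKM in the KO libraries, with both KO libraries below both WT libraries (log2 difference -0.20, SE 0.11; limma, adjusted p = 0.914; between -0.10 and -0.024 under the 3 other scalings). Tuba1b was at 294 and 379 FPKM in the WT libraries, against 267 and 403 FPKM in the KO libraries, and its higher values were those of the libraries numbered 2. Tuba1a made up 83.8% and 78.2% of the summed alpha-tubulin FPKM in WT and 83.0% and 77.0% in KO. Tuba4a, Tuba8, Tuba3a, Tuba3b and Tubal3 did not pass the filter.

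Tubb4a, the beta-tubulin isotype enriched in oligodendrocytes and mutated in a human hypomyelinating leukodystrophy, showed the widest genotype gap on the log2 scale among the members above 100 FPKM. It was at 1154 FPKM (WT 1) and 787 FPKM (WT 2) without the allele, against 734 FPKM (KO 1) and 427 FPKM (KO 2) with it. In FPKM the 2 KO libraries were lower than either WT library, although WT 2 and KO 1 were close. After rescaling to TPM, by summed FPKM of 341138 in WT 2 and 311839 in KO 1, the groups overlapped. The mean was 971 ± 259 FPKM over the WT libraries (SD, n = 2) and 580 ± 217 FPKM over the KO libraries (SD, n = 2), which is 59.8% of the WT value. On the log2 scale the difference was -0.77 (SE 0.31, 95% interval -1.57 to 0.040), which did not pass (limma, adjusted p = 0.885). It was negative under all 12 alternatives, between -1.16 without KO replicate 1 and -0.38 without KO replicate 2. As the groups did not overlap, only the other scalings could have turned the sign. Under those the difference lay between -0.69 and -0.56. By rank in the table Tubb4a stood at place 8 (WT 1), 26 (WT 2), 25 (KO 1) and 80 (KO 2). Its gene lies on chromosome 17 at 57080066 to 57087782 (minus strand, 4 exons).

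The place of Tubb4a in the beta-tubulin pool also varied between libraries. It supplied 52.3% (WT 1), 36.9% (WT 2), 44.0% (KO 1) and 25.0% (KO 2) of the summed beta-tubulin FPKM, so the shares of the genotypes overlapped. In KO 2 its share was close to that of Tubb2a (22.2%). All beta-tubulins summed to 2207 and 2134 FPKM in the WT libraries and to 1667 and 1706 FPKM in the KO libraries, with no overlap. Without Tubb4a the sums were 1053 and 1346 FPKM for the WT libraries and 933 and 1279 FPKM for the KO libraries, which overlapped. The alpha-tubulin sum was 1.60 to 1.85 times the beta-tubulin sum in WT and 1.84 to 2.06 times in KO.

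**Figure D2:**
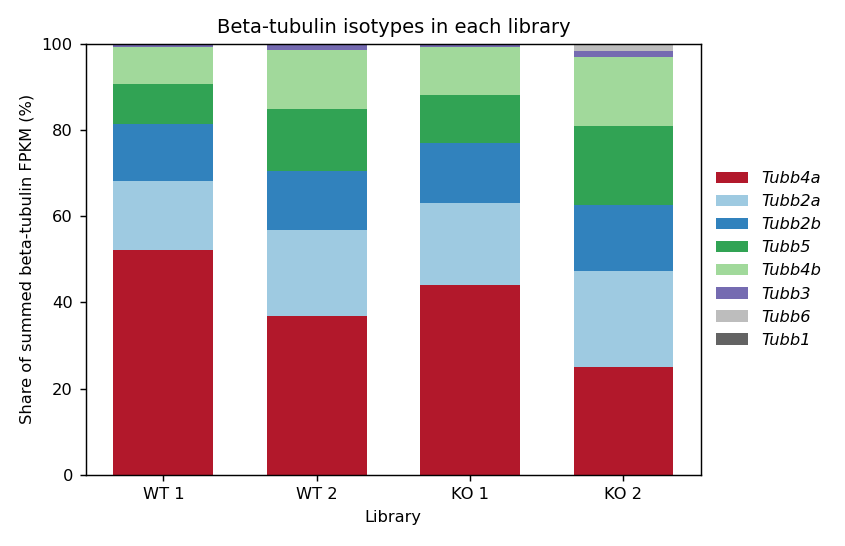
Share of each beta-tubulin gene in the summed beta-tubulin FPKM (vertical axis, percent) of each library (horizontal axis). Tubb4a supplies 52.3% in WT 1 and 25.0% in KO 2, with WT 2 (36.9%) and KO 1 (44.0%) between them.

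Tubb2b, an isotype of the developing brain whose mutations cause cortical malformations, was even in WT (292 and 293 FPKM) and lower in KO (232 and 262 FPKM). The groups did not overlap and the log2 difference was -0.25 (SE 0.13, 95% interval -0.57 to 0.079; limma, adjusted p = 0.914). After the 3 other scalings it lay between -0.15 and -0.057. Its neighbour and near copy Tubb2a was at 350 and 426 FPKM in the WT libraries, against 319 and 378 FPKM in the KO libraries, with overlapping groups. Since these genes share sequence, a change in either one could move the FPKM of both, and that was not tested.

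Tubb5, a broadly expressed isotype of dividing cells and neural progenitors, was at 207 FPKM (WT 1) and 305 FPKM (WT 2) without the allele, against 183 FPKM (KO 1) and 312 FPKM (KO 2) with it. Tubb3, the isotype used as a marker of young neurons, was at 10.4 and 24.2 FPKM in the WT libraries, against 9.55 and 24.6 FPKM in the KO libraries. For both genes the libraries numbered 2 were the high ones in each genotype, and the genotypes overlapped. The genotype differences were -0.072 for Tubb5 (SE 0.32; limma, adjusted p = 0.995) and -0.042 for Tubb3 (SE 0.60; limma, adjusted p = 0.997), and both were positive after rescaling to TPM (0.028 and 0.052). The intervals were wide, -0.90 to 0.75 for Tubb5 and -1.57 to 1.49 for Tubb3, so a difference between genotypes is not shown to be absent. Tubb4b, another widely used isotype, had the same arrangement (188 and 291 FPKM for WT, 187 and 273 FPKM for KO), while Tubb6 was scattered (6.44 and 6.95 FPKM for WT, 1.88 and 28.3 FPKM for KO).

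Stmn1, which encodes the stathmin of proliferating cells and progenitors, varied more between library numbers than any abundant member did between genotypes. It was at 151 FPKM (WT 1) and 506 FPKM (WT 2) without the allele, against 177 FPKM (KO 1) and 553 FPKM (KO 2) with it. The library numbered 2 was 3.35 times the library numbered 1 in WT and 3.12 times in KO. For the summed cell cycle markers those ratios were 5.74 and 4.19, and all 10 of these markers were higher in both libraries numbered 2 than in both numbered 1. Whether dividing cells account for the Stmn1 pattern was not tested. In bulk libraries more cells of a kind cannot be told apart from more RNA per cell. The genotype difference was 0.18 (SE 0.76, 95% interval -1.79 to 2.14; limma, adjusted p = 0.995).

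Stmn3, a stathmin anchored to Golgi membranes and abundant in the nervous system, was at 196 and 309 FPKM in the WT libraries, against 252 and 284 FPKM in the KO libraries. Both KO values lay between the WT values, and the log2 difference was 0.12 (SE 0.24; limma, adjusted p = 0.991). Together with Tubb3, Tubb5 and Stmn1 it made 4 members whose libraries numbered 2 both lay above both libraries numbered 1, an arrangement found in 22.3% of all rows tested. Tuba1a was the single member with the opposite arrangement, found in 17.2% of rows. Stmn4, the remaining stathmin, was at 7.52 and 11.8 FPKM in the WT libraries, against 10.98 and 14.6 FPKM in the KO libraries. Stmn1 and Stmn3 changed places as the leading stathmin with library number: Stmn1 made up 42.5% and 39.9% of stathmin FPKM in WT 1 and KO 1 and 61.2% and 64.4% in WT 2 and KO 2.

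Stmn2, known as SCG10 and otherwise a neuronal growth-cone stathmin, was scarce but was the member with the largest difference. It was at 1.35 and 0.503 FPKM in the WT libraries, against 3.67 and 6.57 FPKM in the KO libraries, with both KO libraries above both WT libraries. By the rough depth estimate those values correspond to about 173 and 76 reads for WT, 502 and 868 reads for KO, if the annotated 2073 bp transcript was the one used. The ratio of the group means was 5.51, and the log2 difference on the log2(FPKM + 1) scale, which understates changes of low genes, was 1.66 (SE 0.45, 95% interval 0.49 to 2.83). The unadjusted p was 0.015 and the adjusted p 0.859 (limma), so it did not pass over the whole table. The difference was positive under each of the 11 alternatives in which the gene was tested, between 1.31 and 2.42. As the groups did not overlap, only the 3 other scalings could have turned the sign. Under those the difference lay between 1.59 and 2.23.

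Neuronal markers stood beside Stmn2 as follows. The 25 markers summed to 213 and 332 FPKM in the WT libraries and to 295 and 387 FPKM in the KO libraries, which overlapped. Gap43, a growth-cone gene that oligodendrocyte precursors also express, made up most of each sum; without it, a split chosen after its values were seen, the sums were 84.3 and 96.0 FPKM for WT against 130 and 124 FPKM for KO. Of the 10 that passed the filter 4 lay above WT in both KO libraries (Dlx2, Snap25, Syp and Elavl4), 0 below, and 6 overlapped, beside 16.6% above and 18.3% below among all rows tested. Dlx2 passed the filter only through the KO libraries, where it is high (0 and 0.055 FPKM for WT, 3.65 and 4.84 FPKM for KO). Snap25 was at 3.46 and 5.06 FPKM in the WT libraries, against 6.84 and 6.82 FPKM in the KO libraries. Syp, which encodes a synaptic vesicle protein, was at 28.7 and 13.9 FPKM for WT against 38.0 and 33.6 FPKM for KO, and the neurofilament-family gene Ina was at 33.1 to 53.5 FPKM over all libraries. Other neuronal markers differed in level. Rbfox3, Syt1 and Slc17a7 were at most 0.354 FPKM in every library. The neurofilament genes Nefl and Nefm were higher, at 6.8 to 12.9 and 1.88 to 9.96 FPKM over all libraries, with overlapping groups. The part of neuronal RNA in the Stmn2 values was not tested. Precursor markers also lay above WT in both KO libraries for 5 of 8 genes and below for 0, beside the same 16.6% and 18.3% of all rows, Pdgfra among them (18.5 and 26.8 against 40.2 and 42.5 FPKM).

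**Figure D3:**
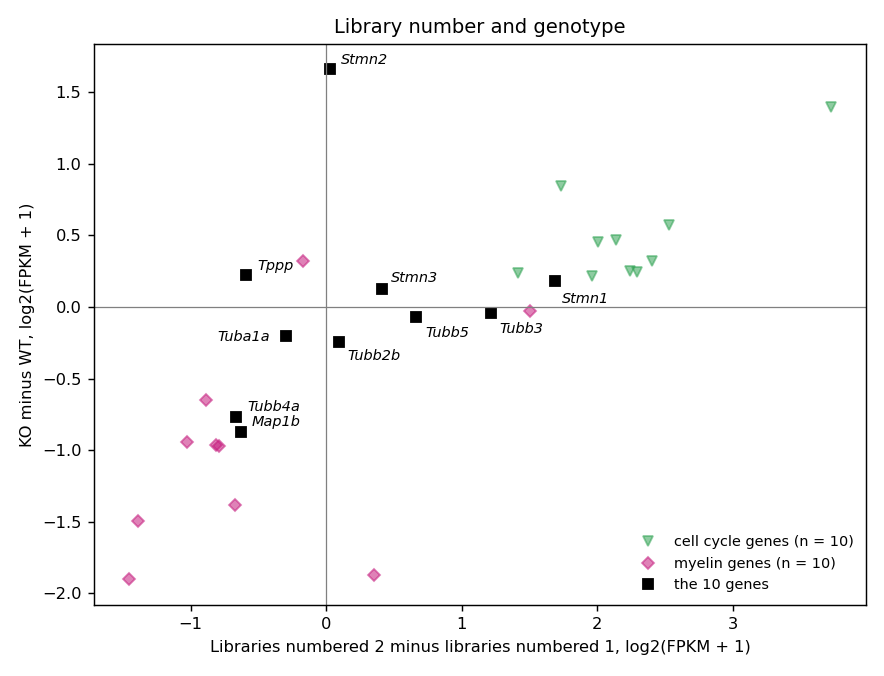
Difference between libraries numbered 2 and 1 (horizontal axis) and between KO and WT (vertical axis), both as means of log2(FPKM + 1), for the 10 genes (black squares), 10 tested cell cycle genes (green) and 10 tested myelin genes (pink). Stmn1 and Tubb3 lie far to the right with small genotype differences, Stmn2 (1.66) lies highest of the 10 genes, and Tubb4a (-0.77) and Map1b (-0.87) lie low and to the left, where most myelin genes lie.

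Map1b, a large microtubule-associated protein of extending processes, was at 39.3 and 26.4 FPKM in the WT libraries, against 22.1 and 13.2 FPKM in the KO libraries. Both KO libraries were below both WT libraries, and the KO mean was 53.8% of the WT mean. The log2 difference was -0.87 (SE 0.36, 95% interval -1.80 to 0.051; limma, adjusted p = 0.885). It was negative under all 12 alternatives, from -1.22 without KO replicate 1 to -0.52 without KO replicate 2. Here too only the other scalings could have turned the sign, and under those the difference lay between -0.86 and -0.80. The gene lies on chromosome 13 at 99421446 to 99516540 (minus strand), and its transcript of 11808 bp is the longest of the members.

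Tubb4a and Map1b shared the order of the libraries, WT 1 highest, then WT 2, KO 1 and KO 2. They were the 2 of 10 members with that order, which 4.98% of all rows tested showed. Among the 10 tested myelin markers 5 had the same order, with Mbp, Mag, Mog and Mobp among them. The summed myelin markers followed a similar course, 777 and 489 FPKM for the WT libraries and 507 and 241 FPKM for the KO libraries, with KO 1 slightly above WT 2. With 4 libraries this is a description of order in FPKM, and no likeness beyond it was tested. After rescaling to TPM Tubb4a did not keep WT 2 above KO 1.

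Tppp, or p25 alpha, nucleates microtubules at Golgi outposts of oligodendrocytes and is known from mature cells. It was low throughout, at 2.54 and 0.312 FPKM in the WT libraries, against 1.30 and 1.75 FPKM in the KO libraries. The KO values lay between the WT values, which differed from each other 8.14-fold, and by the rough depth estimate WT 2 held about 71 reads. The log2 difference was 0.22 (SE 0.58; limma, adjusted p = 0.993). Its paralog Tppp3 was at 1.76 and 3.31 FPKM in the WT libraries, against 0.011 and 0.464 FPKM in the KO libraries, with no overlap (log2 difference -1.50, SE 0.44; limma, adjusted p = 0.859). That difference was -3.33 with a pseudocount of 0.1 and -2.36 after rescaling to TPM. Values this close to 0 in FPKM tables can be failed estimates, and whether these were was not tested.

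**Figure D4:**
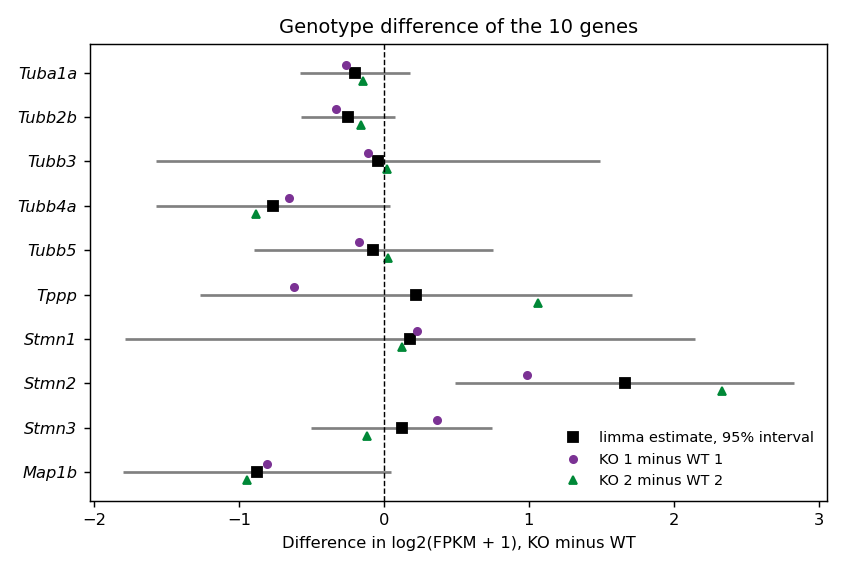
KO minus WT in log2(FPKM + 1) (horizontal axis) for each of the 10 genes: black squares are limma estimates from 4 libraries with 95% intervals, purple circles compare the libraries numbered 1 and green triangles those numbered 2. The interval of Stmn2 (0.49 to 2.83) lies above 0 before adjustment, and those of the other 9 genes include 0.

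Compared within library number, 6 of the 10 genes kept the sign of their difference. The share over all rows was not computed, so the count says little about these genes. Tubb4a, Map1b, Tubb2b and Stmn2, whose groups did not overlap, keep the sign by construction. Tubb4a differed by -0.65 between KO 1 and WT 1 and by -0.88 between KO 2 and WT 2. For Map1b those values were -0.80 and -0.94, for Tuba1a -0.26 and -0.14, and for Tubb2b -0.33 and -0.16. Stmn2 differed by 0.99 and 2.33, and Stmn1 by 0.23 and 0.13. Tubb5 differed by -0.17 and 0.031. Tubb5, Tubb3, Tppp and Stmn3 were the 4 that turned, Tppp from -0.62 to 1.07.

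Genes around the members were grouped by role in 11 lists of 146 genes, of which 108 were tested, members included. None of the 108 had an adjusted p under 0.05 and 7 had an unadjusted p under 0.05 (limma). The 2 KO libraries were lower than either WT library for 35 of them and above for 15, and 58 overlapped. That is 32.4% below and 13.9% above, beside 18.3% and 16.6% of all rows tested, and beside 42.8% and 7.15% of the 741 rows with a mean of at least 100 FPKM. Most of the 108 genes had a mean under 100 FPKM. Without the members the counts were 32 below and 14 above of 98. The median log2 difference of the 108 genes was -0.10.

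Cytoplasmic dynein and dynactin, which carry cargo toward microtubule minus ends, had 12 of 25 tested genes below WT in both KO libraries and 0 above. Among all rows tested 18.3% lay below and 16.6% above, and among rows with a mean of at least 100 FPKM 42.8% and 7.15%. Most of these 25 genes had a mean under 100 FPKM, as did most genes of the lists below. The second pair of shares therefore does not match them in level. The same shares stand beside the counts of the other lists given below. Dctn3, a dynactin subunit, was at 135 and 133 FPKM in the WT libraries, against 91.1 and 65.6 FPKM in the KO libraries (log2 difference -0.78, SE 0.21; limma, adjusted p = 0.859). The dynein light chain gene Dynll1 was at 427 and 388 FPKM in the WT libraries, against 324 and 310 FPKM in the KO libraries (log2 difference -0.36, SE 0.11; limma, adjusted p = 0.859; -0.19 after quantile or cyclic loess normalization), and Dynll2 at 55.5 and 34.2 against 28.1 and 19.6 FPKM. Kinesins of cargo transport were split, with 4 of 11 below and 4 above. Kif3c, a motor subunit of the kinesin-2 family, was at 2.83 and 0.539 FPKM in the WT libraries, against 5.70 and 7.68 FPKM in the KO libraries, while Kif21b was at 5.90 and 3.13 against 2.70 and 1.28 FPKM. Kif5a was at 0.818 and 1.57 FPKM in the WT libraries, against 1.65 and 3.13 FPKM in the KO libraries.

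Lattice-binding proteins, the list that holds Map1b and Tppp, had 4 of 12 tested genes below and 0 above. Map1a, the relative of Map1b that prevails in the mature brain, was at 2.46 and 1.995 FPKM in the WT libraries, against 0.818 and 1.31 FPKM in the KO libraries. Map7d2 was at 1.06 and 1.63 against 0.843 and 0.953 FPKM. Map7d2 and Tppp3, both counted as below, passed the filter only through the WT libraries, where they are higher. Mapt, which encodes tau, overlapped, at 2.55 to 3.85 FPKM over all libraries. Dcx, a marker of migrating neurons, was at 0.882 to 1.30 FPKM.

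Enzymes that modify tubulin had 5 of 14 below and 4 above. Ttll12, a member of the tubulin tyrosine ligase-like family, was at 10.001 and 9.32 FPKM in the WT libraries, against 17.7 and 24.8 FPKM in the KO libraries (log2 difference 1.05, SE 0.29; limma, adjusted p = 0.859). Ttl, the ligase that restores the terminal tyrosine of alpha-tubulin, was at 3.69 and 3.35 against 5.39 and 6.41 FPKM, and the polyglutamylase gene Ttll11 at 3.76 and 2.19 against 5.43 and 6.26 FPKM. Tubulin folding cofactors had 2 of 6 below and 0 above. Tbca, which captures folding beta-tubulin, was at 138 and 137 FPKM in the WT libraries, against 112 and 118 FPKM in the KO libraries, and Tbcb, its counterpart for alpha-tubulin, at 156 and 123 against 112 and 113 FPKM.

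Nucleation genes had 3 of 14 below and 2 above. Mzt2, a small partner of the gamma-tubulin complex, was at 42.3 and 53.4 FPKM in the WT libraries, against 37.1 and 41.6 FPKM in the KO libraries. Tube1, encoding epsilon-tubulin of centrioles, was at 0.992 and 0.029 against 1.81 and 2.13 FPKM, and Tubgcp5 at 0.528 and 1.41 against 1.42 and 3.89 FPKM. End-binding genes had 2 of 7 below and 2 above. Camsap2, which holds free minus ends, was at 2.25 and 2.39 FPKM in the WT libraries, against 1.36 and 0.329 FPKM in the KO libraries, Slain1 at 29.4 and 24.5 against 23.8 and 10.3 FPKM, and Clip2 at 0.590 and 0.723 against 1.10 and 1.84 FPKM. Tube1 and Clip2 passed the filter only through the KO libraries, where they are high, which favours counting them as above. Of 5 severing genes 0 lay below and 2 above. Spast, which encodes spastin, was at 1.45 and 1.82 FPKM in the WT libraries, against 3.55 and 2.44 FPKM in the KO libraries, and Fignl1 at 2.03 and 2.01 against 2.27 and 3.95 FPKM.

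**Figure D5:**
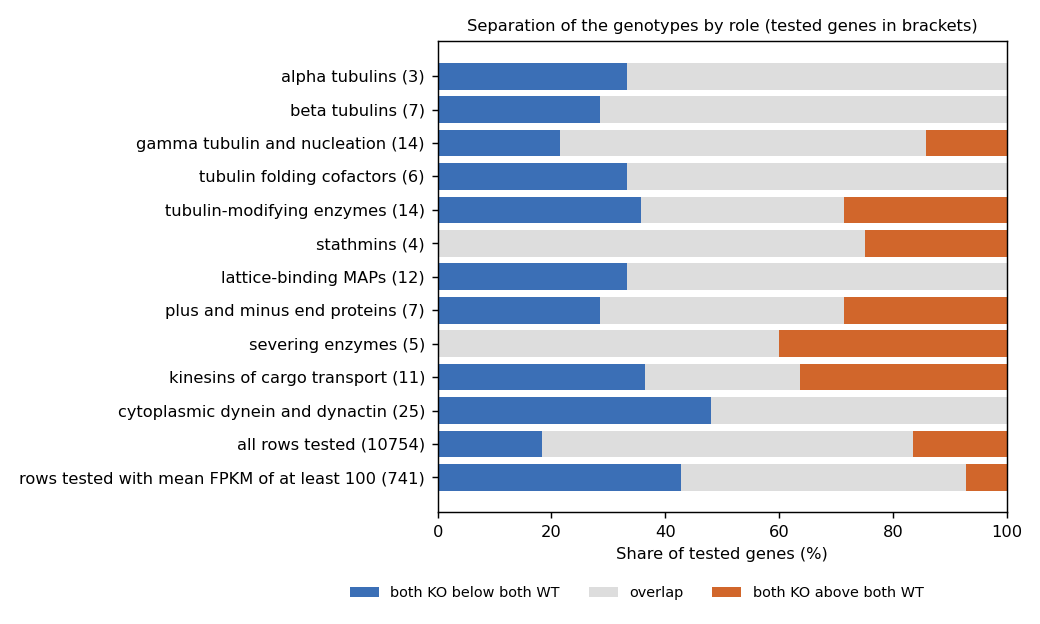
Share of tested genes (horizontal axis, percent) in each role list with both KO libraries below both WT libraries (blue), overlapping (grey) or above (orange); the number of tested genes is in brackets. Dynein and dynactin show 12 of 25 genes below and 0 above, beside 18.3% below and 16.6% above for all rows tested. The shares are 42.8% and 7.15% for rows with a mean of at least 100 FPKM. Most of the 25 genes lie under that level.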

How the data were processed

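RNA sequencing of 2 WT and 2 KO libraries was deposited as a single table. Its values are FPKM computed by the authors, 1 column per library, per the file headers. TopHat (version not listed) and the build mm10 appear in the submitters' processing notes. The program that estimated FPKM, the annotation and the strand setting were not given in the sources used here, so overlapping and antisense genes cannot be told apart.

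From these values log2(FPKM + 1) was computed, with no further scaling. The 10754 of 35869 rows that reached 1 FPKM in 2 or more libraries were fitted with limma 3.58.1 in R 4.3.3, with genotype as the term, variances moderated by empirical Bayes along a mean-variance trend and Benjamini-Hochberg adjustment over all rows (threshold 0.05, two-sided). SE and 95% intervals are from this fit, and SD is over the 2 libraries of a group. The fit was tested on simulated data. FPKM are not counts and no count test was run. Depth was read from the commonest product of FPKM and annotated transcript length among values of 0.02 to 0.2, sought only within a preset range. The commonest bin held 2.20% (KO 1) to 2.41% (WT 1) of these values, a weak peak. The depth is therefore rough, also because the transcript lengths behind FPKM are not given. Counting error has no interval here.

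The members, the 11 role lists and the 9 marker lists were chosen with earlier results of these data known, so they are described by counts and medians beside all rows tested. All members were named, and from each role list up to 3 more genes, those with groups that did not overlap and the largest absolute log2 difference; alpha-tubulins, beta-tubulins and stathmins were named for completeness. Tppp3, which that rule also names, is given beside Tppp. Mapt, Dcx and the marker genes are given as context. Gene positions, transcript lengths and coding ends came from GENCODE M21 (GRCm38, the build called mm10), and shared sequence was counted as 50-base words found on either strand in transcripts of other genes. The 12 alternatives were other pseudocounts, filters and scalings, no variance trend, a replicate block and leaving out each library.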

Additional observations from a re-analysis of the deposited data

How the results depend on the processing

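Under all 12 alternatives 0 genes of the table, 0 members and 0 genes of the role lists had an adjusted p under 0.05 by limma, with a smallest adjusted p between 0.413 and 0.9998. With library number as a replicate block the count was 0 and the smallest adjusted p 0.413, against 0.859 without it. The labels do not say that a number marks a shared animal or batch, and with 2 pairs the correlation of same-numbered deviations (0.289 over 10754 rows) cannot show pairing. It changed no call.

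Members with KO below WT numbered 3. The count was 2 after rescaling to TPM, where Tubb4a overlapped, 2 after cyclic loess and 1 after quantile normalization. With a library left out it was 4 to 5, and 5 without WT replicate 2 or without KO replicate 2. Members above numbered 1, and 0 where a mean of at least 5 FPKM was required, since Stmn2 was then not tested; with a library left out they numbered 1 to 4 (2 without WT replicate 1, 3 without WT replicate 2, 4 without KO replicate 1). Leaving out a library compares 2 values with 1, which separates more often. The median of the 108 role list genes lay between -0.16 and -0.054 with a library left out, and that of the members between -0.36 and 0.26. The members' median also turned positive under the other scalings: 0.040 after rescaling to TPM (all rows 0.095), 0.046 after quantile (all rows -0.011) and 0.068 after cyclic loess normalization (all rows -0.0064). The role list median was -0.044 with no filter, -0.16 with the stricter filter and -0.027 after rescaling to TPM.

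Of 380 values for 33 named genes 13, in 6 members, turned direction. The other 367 did not turn, and they include Tuba1a after quantile normalization, where its difference was 0. Many of the 367 could not have turned. The filter, variance trend and block settings leave each estimate unchanged. The 23 named genes from the role lists were chosen among those with groups that did not overlap. For these genes only the other scalings could have turned the sign, so the count of 367 says little. After rescaling to TPM, Tubb3 was at 0.052 and Tubb5 at 0.028. Tubb5 was at 0.092 after quantile and 0.086 after cyclic loess normalization, which put Tuba1a at 0.050. With a library left out the range was -0.68 to 0.60 for Tubb3, -0.45 to 0.31 for Tubb5, -0.69 to 1.05 for Stmn1, -0.20 to 0.45 for Stmn3 and -0.49 to 0.94 for Tppp. The cause was not tested.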
